A study of Bos taurus with 4 samples.

Results

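The regions described here were stretches of the bovine genome that carried trimethylation of histone H3 at lysine 4 (H3K4me3) over a moderate width in bovine embryonic stem cells and were listed without trimethylation of lysine 27 (H3K27me3). Members were chosen by position and width in the peak lists, so width, sharing between replicates and lack of shared H3K27me3 are properties of the choice and not findings. Peaks of a mark were kept when at least 1 bp of them was covered in the other replicate, and what was kept from both replicates was joined into regions. A member was a merged H3K4me3 region of 1000 bp to under 5000 bp that overlapped no merged H3K27me3 region, on chromosomes 1 to 22 and 24 to 29. In all, 10469 of the 17728 shared H3K4me3 regions on these 28 chromosomes were members, and the whole series held 20580 shared H3K4me3 regions. Without peaks scoring below their list's median, 5876 regions met the rule.

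The study profiled bovine embryonic stem cells grown in NBFR medium (NBFR-bESCs) by CUT&RUN, in which a nuclease tethered to an antibody releases the DNA around a histone mark for sequencing. There were 2 libraries for H3K4me3 and 2 for H3K27me3, of about 50000 cells each. According to the labels, the cells came from a female blastocyst of day 7 produced by in vitro fertilisation, were kept on mouse embryonic fibroblasts that were removed before the assay, and formed a line after 4 passages. The medium contained FGF2 at 20 ng/mL, IWR-1, an inhibitor of WNT signalling, at 2.5 µM, and 1% bovine serum albumin, and all 4 libraries shared it. The labels describe a single derivation, whereas the legend of the CUT&RUN figure names 2 independent lines, NBFR1 and NBFR2. The labels do not say that the replicates are these lines, so the replicates may differ by line or only technically. With 2 libraries per mark, a two-sided exact permutation test of 2 against 2 cannot give a p below 0.333, and values are therefore given for each replicate without a test.

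H3K4me3 is laid down mainly around the start sites of genes that are transcribed or poised for transcription, and most promoters rich in CpG carry it. H3K27me3 is written by Polycomb repressive complex 2 over silent genes, many of them regulators of development. In embryonic stem cells some promoters carry both marks and are called bivalent, and promoters with H3K4me3 alone include those of genes that all cells use. No genome or annotation of the assembly of the lists, ARS-UCD1.2, was used here, so regions are given by position, were not assigned to genes and are shown without sequence.

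For H3K4me3, replicate 1 had 21407 peaks over 58.7 Mb of the 28 chromosomes and replicate 2 had 19839 over 58.8 Mb. For H3K27me3 there were 15046 peaks over 171 Mb and 14221 over 185 Mb. Every peak was a whole number of windows of 200 bp. Each peak also had a whole-number score from the authors whose meaning is not named, so scores were in general compared within a list. Values of both lists were set side by side to rank single regions and in the plot and correlation of the replicates. The value compared was the summed score of a region's peaks in that library divided by the number of windows those peaks cover. This score per window had a median of 20.2 over all H3K4me3 peaks of replicate 1 and 19.3 over those of replicate 2. Read depth is not known from the lists, so a mark without a peak is described as not listed.

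Members were the most common kind of H3K4me3 region and covered 30.1 Mb. They made up 59.1% of the shared H3K4me3 regions (95% Wilson interval 58.3% to 59.8%, counting error only, as for all intervals here) and 78.4% of those without shared H3K27me3. Lack of H3K27me3 was not particular to this width: it held for 74.4% of the 14069 regions of mid width, against a background of 75.3% of all shared H3K4me3 regions. It held for 55.2% of the 344 narrower regions (49.9% to 60.4%) and for 81.4% of the 3315 regions of 5000 bp or more (80.0% to 82.7%). Within the width range the share without H3K27me3 was lowest at 1800 bp, where it was 68.4%, and highest at 4600 bp, where it was 84.1%. When each H3K4me3 list was set against each H3K27me3 list without the other replicate, the share of mid-width peaks without H3K27me3 was 75.7%, 75.6%, 75.1% and 75.1% in the 4 pairings. The choice of library thus moved the share by less than the widths did.

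The median member was 2800 bp wide, with quartiles of 2000 bp and 3800 bp. Each of the 20 widths in the range held between 275 and 669 members, and the most were found at 3200 bp. The lower limit fell on the rising side of this distribution and the upper limit on its falling side, with no gap at either. Just inside the lower limit, the 275 members of 1000 bp had a median score per window of 12.3 in replicate 1 and 10.8 in replicate 2. The 120 regions of 800 bp without H3K27me3 just outside it had 12.8 and 11.7. Just inside the upper limit, the 324 members of 4800 bp had 30.2 and 26.8, and the 319 regions of 5000 bp without H3K27me3 had 30.6 and 27.6. On both sides of each limit the regions were therefore much alike in score per window.

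**Figure D1:**
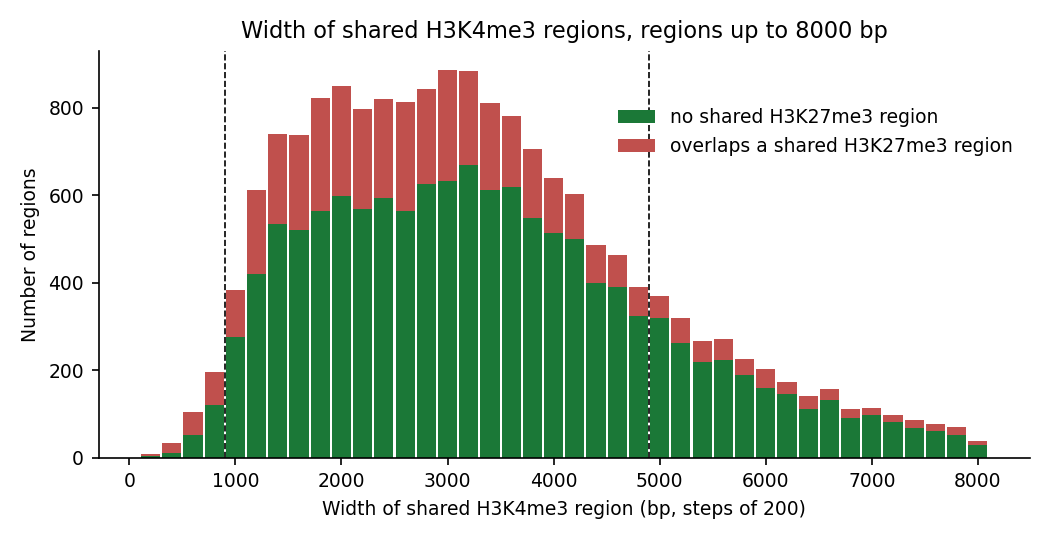
Number of shared H3K4me3 regions (vertical axis) at each width up to 8000 bp in steps of 200 bp (horizontal axis), split into those without and with a shared H3K27me3 region, with dashed lines at the limits of the mid-width range. Members are the green bars between the lines, with 669 at 3200 bp, and no gap separates them from narrower or broader regions.

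The members were not uniform in H3K4me3 score: its distribution had a weak and a strong top in both libraries, with a trough between that still held many members. In replicate 1 the score per window of the members was most frequent from 8 to 10, with 903 members, and again from 28 to 30, with 742, while only 455 lay from 16 to 18 between these tops. Replicate 2 had its tops at 8 to 10, with 1072 members, and at 24 to 26, with 765, and its trough at 14 to 16, with 488. Broad regions without H3K27me3 had a single top, which was 28 to 30 in replicate 1 and 26 to 28 in replicate 2. Mid-width regions with H3K27me3 had a single top in replicate 2, at 10 to 12. In replicate 1 their curve fell from a top at 10 to 12 with a near level stretch, where 299 regions from 18 to 20 were followed by 301 from 20 to 22. The strong top of the members thus lay at or just below the score per window of the broad regions. The weak top lay near the low end of the lists, where the lowest 5% of all H3K4me3 peaks were under 7.25 in replicate 1 and 6.67 in replicate 2. Weaker regions may be missing through peak calling and the demand for sharing, and the part of this in the weak top was not tested. The split was looked for after the scores had been seen, and it was lost when peaks scoring below their list's median were left out, which by construction removes low scores.

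**Figure D2:**
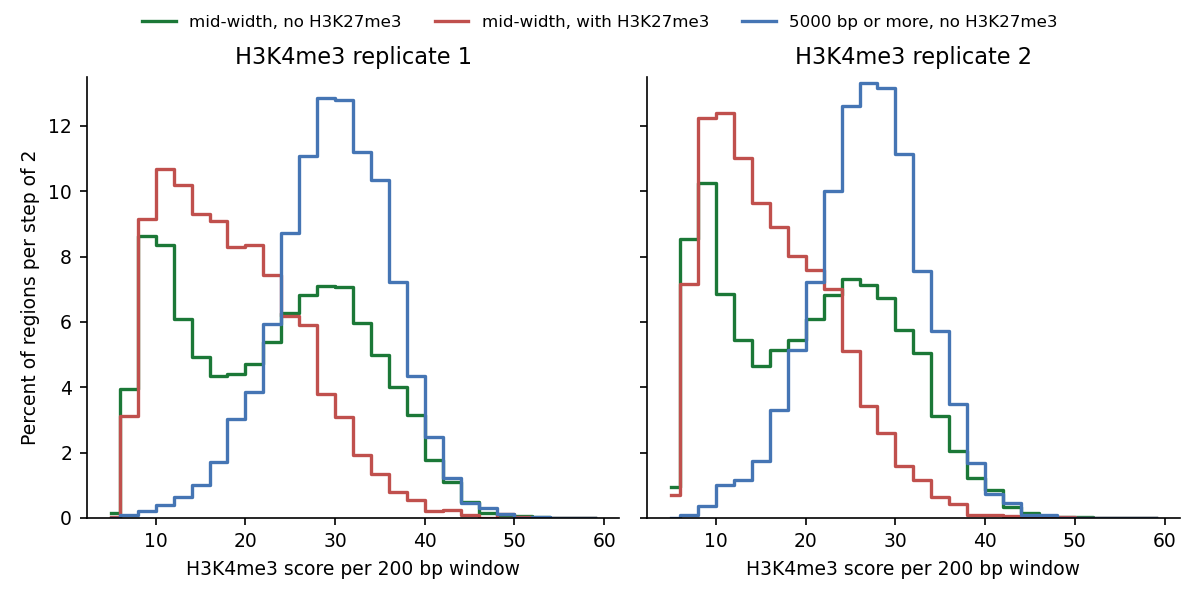
Percent of regions (vertical axis) in each step of 2 of H3K4me3 score per 200 bp window (horizontal axis), in replicate 1 (left) and replicate 2 (right), for mid-width regions without H3K27me3, mid-width regions with it and broad regions without it. The green curve of the members has tops at 8 to 10 in both replicates and at 28 to 30 or 24 to 26, and the blue curve of the broad regions has 1 top.

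Among members, which by choice were listed in both libraries, the weak and strong sets were largely the same regions in both. The middle of the trough, a score per window of 17 in replicate 1 and 15 in replicate 2, was used to divide the members. Of the 3588 members under the limit in replicate 1, 91.2% were also under that of replicate 2, and of the 6881 at or over it, 95.5% were also at or over that of replicate 2. Mid-width peaks without H3K27me3 that were listed in 1 replicate only, 1594 in replicate 1 and 962 in replicate 2, are left out of these shares. All of those lay under the limits, with highest values of 14.8 and 13.2, so the 91.2% holds for members and not for all weak peaks. Altogether 3274 members (31.3%) were weak in both libraries, 6571 (62.8%) were strong in both and 624 (5.96%) changed side. Over all shared H3K4me3 regions the background was 28.8% weak and 64.3% strong in both, so the shares among members were near it. Of the mid-width regions with H3K27me3, 41.4% were weak and 46.2% strong, and of the broad regions without it 2.63% and 95.9%. The division is a range and not a sharp class: 8.92% of the members lay within a score per window of 2 around the trough in replicate 1 and 10.2% in replicate 2. Over all members the score per window of the replicates had a Spearman correlation of 0.913 and a Pearson correlation of 0.913 (n = 10469 regions, which share the same 2 libraries and are not independent).

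**Figure D3:**
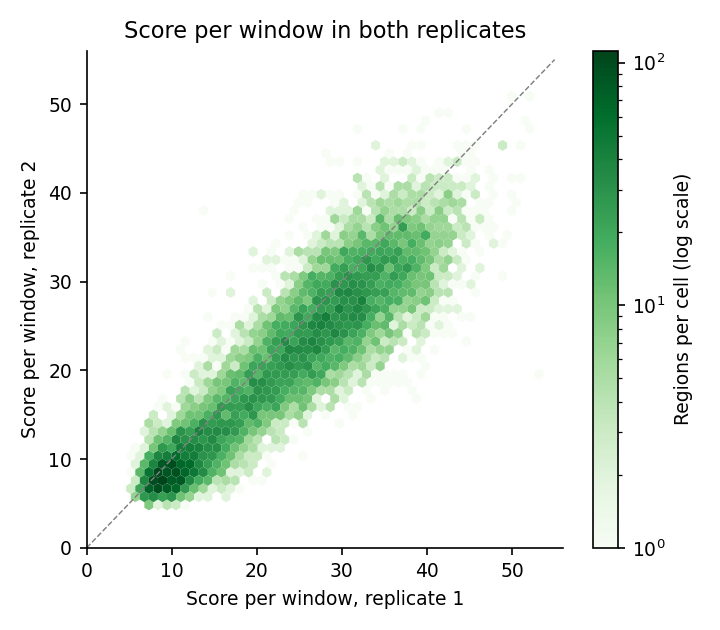
H3K4me3 score per window of each member in replicate 1 (horizontal axis) and replicate 2 (vertical axis), with the number of members per cell as shade on a log scale and the line of equal values dashed. Members gather in a dense weak cloud and a wider strong one along 1 band, in which 5.96% change side.

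Width went along with the division. Weak members had a median width of 1800 bp (quartiles 1400 bp and 2400 bp) and strong members one of 3400 bp (2800 bp and 4000 bp). Of the 1230 members from 1000 bp to under 1600 bp, 78.8% were weak in both libraries and 12.8% strong in both. Of the 2251 from 1600 bp to under 2400 bp, 59.4% were weak and 31.4% strong, and from 2400 bp to under 3200 bp the shares turned to 26.9% weak and 66.6% strong of 2415. Of the 2127 members from 4000 bp to under 5000 bp, 3.76% were weak and 93.3% strong. Both sets nevertheless occurred at every width group, so width alone did not assign a region to a set. Of either set 16.0% lay in the last 10% of their chromosome, and the median distance to the nearest H3K27me3 region was 100.5 kb for weak and 95.8 kb for strong members. An unshared H3K27me3 peak lay over 3.97% of weak and 2.43% of strong members. Another H3K4me3 region was found within 5 kb of 27.4% of weak and 23.2% of strong members, and the median distance to the nearest one was 16.4 kb and 19.4 kb. Of the weak members, 18.9% lay within 5 kb of an H3K4me3 region of any kind that was strong in both libraries.

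The members differed in H3K4me3 score from regions of the same width range that carried H3K27me3. In replicate 1 the median score per window was 23.6 for the members (quartiles 13.2 and 31.1) and 17.6 for the 3600 regions with H3K27me3 (12.3 and 23.8), a ratio of 1.34. In replicate 2 the medians were 20.8 (11.4 and 28.1) and 15.3 (10.7 and 21.3), a ratio of 1.36. Members had the higher median on 28 of 28 chromosomes in both libraries, while the quartile ranges overlapped. The difference was not particular to mid width. Broad regions had medians of 30.1 without and 22.9 with H3K27me3 in replicate 1, and 27.2 and 20.6 in replicate 2. Narrow regions went the other way, with 14.1 without and 16.8 with it in replicate 1, and 12.7 and 15.5 in replicate 2. The order turned with width. At 1000 bp to under 1600 bp the members had the lower medians, 11.5 against 12.7 in replicate 1 and 10 against 11 in replicate 2. At 4000 bp to under 5000 bp they had the higher ones, 29.8 against 22.6 and 26.9 against 20.1. Counted by single widths, the members were higher at 14 of 20 in each library, which were the widths from 2200 bp up. The pooled ratio thus stood for wide members and went against the narrow ones.

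How far membership recurred was asked by choosing mid-width peaks without H3K27me3 from the lists of one replicate and looking for them in the other. Of the 12612 such peaks of replicate 1, 87.4% (86.8% to 87.9%) overlapped an H3K4me3 peak of replicate 2, against a background of 86.1% of all its H3K4me3 peaks. Of the 12103 of replicate 2, 92.1% (91.6% to 92.5%) overlapped one of replicate 1, against 92.7% of all its peaks. Recurrence was thus near that of H3K4me3 peaks in general. It was somewhat below that of mid-width peaks with H3K27me3, of which 92.1% (91.2% to 92.9%) and 95.3% (94.6% to 95.9%) were listed again. An H3K27me3 peak of the other replicate lay over 2.51% and 2.41% of the chosen peaks, against 23.9% and 24.4% of all H3K4me3 peaks, which include those already under H3K27me3 in their own replicate. All criteria together, H3K4me3 of 1000 bp to under 5000 bp and no H3K27me3, were met again in the other replicate by 77.4% of the peaks of replicate 1 and 81.2% of those of replicate 2, against 51.4% and 55.1% of all H3K4me3 peaks, which include those chosen. The H3K4me3 peak was not listed again for 12.6% and 7.95%. Its width there was above the range for 5.69% and 5.02% and below it for 2.19% and 3.90%.

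Recurrence rose steeply with width. Peaks of 1000 bp were listed again in 58.1% of 1101 cases (55.2% to 61.0%) from replicate 1 and 73.9% of 664 (70.5% to 77.1%) from replicate 2. At 2000 bp the shares had reached 91.2% of 667 and 90.7% of 712. At 2600 bp they were 99.3% of 676 and 98.5% of 657, and from 2800 bp up the lowest share at any width was 99.2%. Up to 1400 bp the replicates differed by more than the counting error, with more recurrence from replicate 2 to replicate 1. From 2000 bp to 2600 bp the order was the other way, with overlapping intervals: at 2200 bp it was 96.4% (94.7% to 97.6%) from replicate 1 and 93.8% (91.7% to 95.3%) from replicate 2. The part of list length or read depth in this was not tested.

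**Figure D4:**
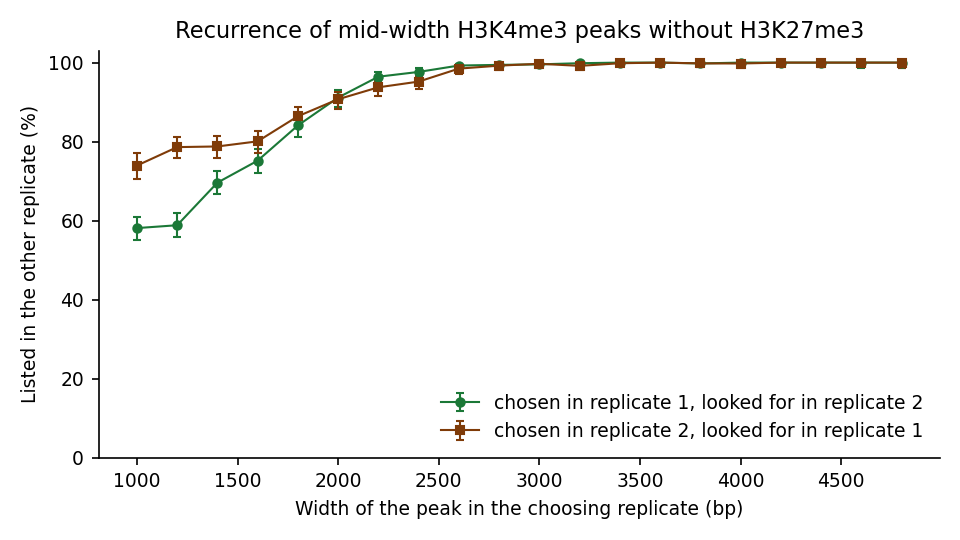
Percent of mid-width H3K4me3 peaks without H3K27me3 of one replicate that overlap a peak of the other (vertical axis) by peak width in bp (horizontal axis), with 95% Wilson intervals as bars. The share climbs from 58.1% and 73.9% at 1000 bp to at least 98.5% from 2600 bp up in both directions.

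The limits of the members were alike but seldom identical in the replicates. A single peak in each library made up 10176 members (97.2%), compared with 94.9% of mid-width regions with H3K27me3, 100% of narrow regions without it and 82.0% of broad regions without it. Of these 10176, 682 (6.70%) had the same start and end in both libraries, and in 36.0% both limits lay within 200 bp of each other, which is 1 window. Replicate 2 was wider in 48.1% and replicate 1 in 37.1%, and the difference in width had a mean of 79.9 bp (replicate 2 minus replicate 1) and an SD of 612 bp. The peak was under 1000 bp in replicate 1 for 492 of them and in replicate 2 for 309, and 38 were under it in both and reached the range through merging.

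The rule removed shared H3K27me3 only, so an H3K27me3 peak of a single library could still lie over a member. No H3K27me3 peak of either library overlapped 10140 members (96.9%). A peak of exactly 1 replicate overlapped 328 members (3.13%, 2.82% to 3.48%), which was near the background of 2.95% of all shared H3K4me3 regions without shared H3K27me3, and 1 further member had an unshared peak in each. Without peaks scoring below their list's median the share was 1.82%. The shares were similar between the libraries, with 149 members under a peak of replicate 1 only and 179 under one of replicate 2 only. By the choice of members, the H3K27me3 peaks concerned were unshared ones, and they were much like unshared H3K27me3 peaks in general. In replicate 1 they had a median score of 99.5 and a median width of 4600 bp, against 102 and 4800 bp for its 1764 unshared peaks and 186 and 6800 bp for the whole list. In replicate 2 the medians were 144 and 4200 bp, against 159 and 5000 bp for 2460 unshared peaks and 292 and 7400 bp for the whole list.

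The nearest shared H3K27me3 region lay at a median of 96.2 kb from a member (quartiles 32.2 kb and 247.6 kb), against 126 kb for the 190 narrow and 120.3 kb for the 2698 broad regions without H3K27me3. Without peaks scoring below their list's median it was 177200 bp, with fewer members and fewer H3K27me3 peaks then left. The part of each in this was not tested. Within 2 kb of an H3K27me3 region lay 3.94% of the members, compared with 1.37% of the broad and 5.79% of the narrow regions. A further 7.35% of the members lay at 2 kb to 10 kb, and 30.4% lay at 200 kb or more. The H3K4me3 score had no steady order with this distance: the median score per window was 25.4 in replicate 1 and 21.8 in replicate 2 within 2 kb, 21.9 and 18.9 at 2 kb to 10 kb, and 23.2 and 20.5 at 200 kb or more. Unshared H3K27me3 peaks were most frequent at 2 kb to 10 kb, where they lay over 7.41% of 769 members, and were found over 3.16% of 412 within 2 kb. Members at 200 kb or more from H3K27me3 also stood farther from other H3K4me3, with a median of 39.2 kb to the nearest region against 11.5 kb within 2 kb.

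The neighbour of a member was most often a member, the most common kind of region. The nearest other shared H3K4me3 region was at a median of 18.2 kb (quartiles 5.2 kb and 51.4 kb), and 24.9% of the members had one within 5 kb, against a background of 27.1% of all shared H3K4me3 regions. Without peaks of below-median score the median was 36400 bp. That nearest region was itself a member in 66.9% of cases, while members were 59.1% of the regions. It was a mid-width region with H3K27me3 in 11.8%, while those were 20.3% of the regions, and a broad region without H3K27me3 in 17.5%, while those were 15.2%. In the order along the chromosomes, the members formed 3775 unbroken runs with no other kind of shared H3K4me3 region between, of which 1387 held a single member, and 40.9% of the members stood in runs of 5 or more. Runs arise in part because members were the majority of the regions, and no value without clustering was computed for them.

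The longest runs held 21 members. One spanned 340.4 kb at chr11:98452801-98793200, and shared H3K27me3 regions covered none of it. Its members had a median score per window of 20.1 in replicate 1 (8.63 to 36.1) and 15.8 in replicate 2 (6.80 to 38.4), and 6 of the 21 were weak in both libraries. The other spanned 1156.4 kb at chr1:70331401-71487800, with 1 H3K27me3 region within it that covered 1.02% of the span. This run was stronger, with medians of 35.6 and 31.4, and 4 of its members were weak in both libraries. Chromosome 18 held 4 runs of 16 members or more, including 16 members within 142.2 kb at chr18:61913801-62056000, where no shared H3K27me3 region lay between them and 4 members were weak. A run on chromosome 18 at chr18:57696801-59200600 was of another kind, since its 19 members were interspersed with 10 H3K27me3 regions that covered 11.2% of the span. Runs therefore mixed weak and strong members, and freedom of a run from H3K4me3 regions with H3K27me3 did not mean that H3K27me3 was not listed in between.

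In windows of 1 Mb the members were unevenly spread. Of 2449 windows 557 (22.7%) held none and the median window held 3, while the 293 windows with 10 or more (12.0%) held 45.4% of the members. Of shared H3K4me3 regions of all kinds, a near share of 42.6% stood in as many of their own fullest windows, while 308 windows (12.6%) held none of them. The fullest window, chr7:43000001-44000000, held 42 members among 65 shared H3K4me3 regions. Mid-width peaks without H3K27me3 of each replicate alone numbered 55 and 50 there, which follows in part from the choice of shared regions. H3K27me3 regions covered 10.4% of that window. The next, chr7:5000001-6000000 with 39 members, had 16.6% of its length under H3K27me3, while chr29:43000001-44000000 with 37 members had 2.90%. The windows with most members thus differed in their H3K27me3.

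Across chromosomes, with length measured to the end of the last peak of any list, the density of members was 4.30 per Mb over the 28 chromosomes and varied by 4.35 times. With chromosomes 23 and X added the ratio was 19.8. It was highest on chromosome 18, at 9.97 per Mb, chromosome 19, at 9.95 per Mb, and chromosome 25, at 9.47 per Mb. It was lowest on chromosome 6, at 2.29 per Mb, and chromosome 20, at 2.31 per Mb. Shared H3K4me3 regions of all kinds varied alike, with 1068 in 65.8 Mb on chromosome 18 and 505 in 117.8 Mb on chromosome 6. Members made up 61.4% and 53.5% of these, and from 51.4% (chromosome 21) to 66.2% (chromosome 27) over the chromosomes. The contrast in density was thus largely that of H3K4me3 regions in general and not particular to members. The replicates taken alone gave 12.2 and 11.5 per Mb on chromosome 18 and 2.71 and 2.60 per Mb on chromosome 6, so the difference between such chromosomes was far larger than that between replicates. Chromosomes 18 and 19 could not be set apart, since the replicates alone put chromosome 19 first, with 12.8 and 12.1 per Mb. The same held for chromosomes 6 and 20, since replicate 1 alone put chromosome 20 lowest, at 2.68 per Mb. Replicate 2 alone gave chromosome 20 a density of 2.65 per Mb, above that of chromosome 6. Over the 28 chromosomes the density of members went with that of broad regions without H3K27me3 (Spearman 0.892, Pearson 0.954). It also went with that of H3K27me3 regions (Spearman 0.712). The chromosomes share the libraries. Their gene content was not measured, and its part in this was not tested. The median score per window of the members on a chromosome ranged from 19.9 on chromosome 27 to 25.6 on chromosome 25 in replicate 1, and from 16.7 on chromosome 27 to 23 on chromosome 1 in replicate 2.

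**Figure D5:**
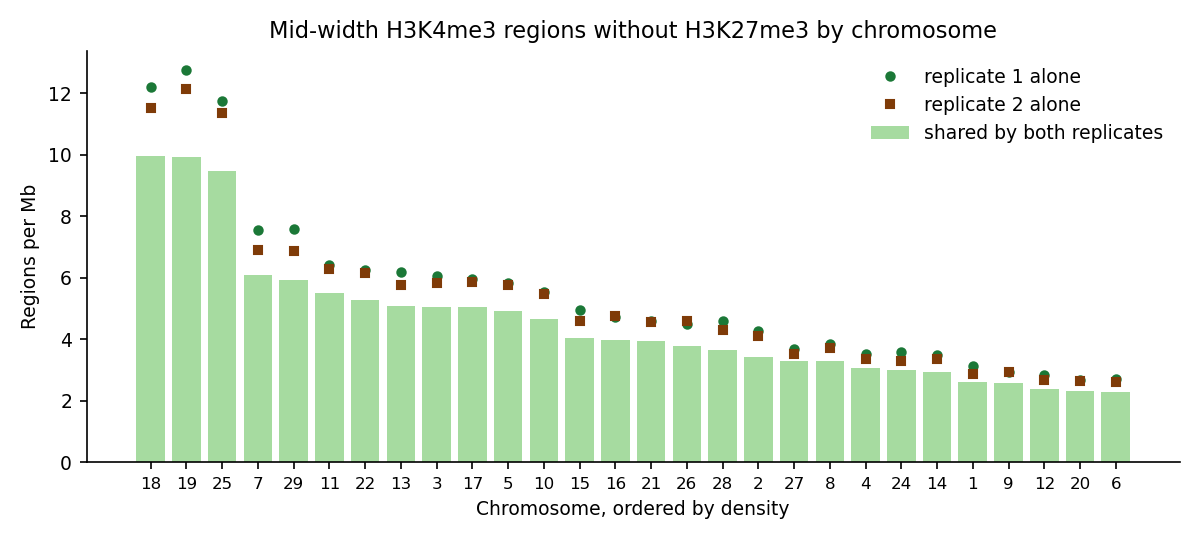
Members per Mb (vertical axis, bars from 0) on each of the 28 chromosomes in order of density (horizontal axis), with the same density from the peaks of replicate 1 alone and replicate 2 alone as points. Chromosomes 18, 19 and 25 stand above 9 per Mb and chromosome 6 is lowest at 2.29, and the points of both replicates keep close to each other.

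Along the chromosomes, numbered from the first base, 16.3% of the members lay in the last 10% of the length and 13.7% in the 10% before it, while the first 10% held 8.34%. The last 10% held 15.1% of all shared H3K4me3 regions, which is the background here, so members were near it. Mid-width regions with H3K27me3 had 15.4% there and broad regions without H3K27me3 had 10.6%.

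Single regions show what these classes look like, and were taken by rank. Ranked by the lower of its values in the 2 libraries, the highest score per window was found at chr20:30067801-30070800, a member of 3000 bp with the same limits in both replicates. Its score per window was 52.5 in replicate 1 and 50.9 in replicate 2, and it stood alone, at 230.4 kb from H3K27me3 and 431.4 kb from the next H3K4me3 region. The second, chr22:48728801-48731600, had 49.7 and 50.6 and lay only 1 kb from a shared H3K27me3 region. The third, chr17:52077201-52080800, had 51.6 and 47.9 at 124.8 kb from H3K27me3. Within each list the second stood at percentiles 99.90 and 99.99 of the members and the third at 99.98 and 99.96. By the lower of these percentiles the third would come before the second. Strong H3K4me3 was thus found both next to H3K27me3 and far from it.

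At the weak end, members were ranked by the higher of their values in the 2 libraries and not by the lower one. A member with 7.8 in replicate 1 and 5 in replicate 2 was thus not among the lowest. The first, chr17:17853401-17855200, had a score per window of 5.88 in replicate 1 and 5.44 in replicate 2, at 296.4 kb from H3K27me3. The member at chr4:69019001-69021200 had 5.64 and 6, and although the nearest shared H3K27me3 region was 72.8 kb away, an unshared H3K27me3 peak of replicate 2 lay 1.2 kb from it. The third, chr14:69385801-69388200, had 6.09 and 5.91. These members were listed in both libraries with limits that differed by up to 400 bp, at a score per window below that of 95% of all peaks in the lists, whose lowest 5% lay under 7.25 and 6.67. Within each list the member on chromosome 4 stood at percentiles 0.07 and 1.17 of the members. The one on chromosome 14 stood at 0.23 and 0.93, so the order of these members depended on the measure.

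Typical members with identical limits in both libraries included chr22:59920401-59924000, with a score per window of 23.7 and 21.2 at 8.8 kb from H3K27me3. A second, chr12:84655601-84658200, had 23.6 and 20.5, with another H3K4me3 region 0.4 kb away. The third, chr19:34740401-34744400, had 23.7 and 21.9 at 20.0 kb from H3K27me3. All of these stood between the trough and the strong top, so that a typical score by the median lay at neither of the tops.

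The criterion of no overlap also let in regions at the edge of H3K27me3. A shared H3K27me3 region directly adjoined 39 members, of which the first along the genome was chr3:34279601-34282200, with a score per window of 31.5 and 21.8. An H3K27me3 peak of replicate 1 adjoined it, while the nearest of replicate 2 lay 2 kb away. The next, chr4:103783401-103788200, had 19.1 and 16.7 and adjoined H3K27me3 in both libraries. At the other extreme, chr20:48811001-48813400 was 6451.4 kb from any shared H3K27me3 region, yet an unshared H3K27me3 peak of replicate 2 overlapped it, and its score per window was 21.5 in replicate 1 and 9.75 in replicate 2. Its neighbour among H3K4me3 regions, 1541 kb away at chr20:50354401-50355800, was 5820.8 kb from shared H3K27me3, with 23.7 and 22. The most isolated members among H3K4me3 regions were chr1:15880601-15883800, at 2851 kb from the next, with 18.1 and 14.0, and chr20:53332601-53334600, at 2623.8 kb, with 19.9 and 21.1. Isolated members on the sparse stretch of chromosome 20 thus had scores near the median of all members in at least 1 library.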

How the data were processed

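The data were 4 CUT&RUN peak lists. After trimming, the authors mapped reads with BWA to the ARS-UCD1.2 assembly, discarded duplicates and poor alignments, and called peaks per library with epic2 in windows of 200 bp, with a wider gap allowed for H3K27me3. No control library or pooling is stated. The submitters' processing notes name cutadapt 1.18, BWA 0.7.17-r1188, SAMtools 1.7, deepTools 3.4.3 and SICER 0.0.41. The deposited lists give position, name, strand and the authors' score, a whole number without a stated meaning. Positions are printed counted from 1.

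The region rule was applied with Python 3.11.15, numpy 2.4.6 and pandas 2.3.3. Adjoining peaks were merged too. Overlaps were tested on simulated data and gave the same counts in bedtools 2.31.1. Intervals came from scipy 1.17.1, and plots from matplotlib 3.10.9. Regions were named by rank. In score per window these were the 3 highest by the lower replicate value and the 3 lowest by the higher one. The others were 3 with identical limits nearest the median of replicate 1, the 2 nearest to and 2 farthest from H3K27me3, and the 2 farthest from other H3K4me3. Members and lists were chosen with earlier results of these data known. The division into weak and strong members, the runs and the 1 Mb windows were added after the data were seen. Alternatives were leaving out each replicate, the peaks of either replicate, an overlap of 50%, peaks at or above the median score, no H3K27me3 peak of either replicate, no H3K27me3 within 2000 bp, narrower width limits and more chromosomes. The gene table at hand is of ARS-UCD2.0, and none of its coordinates were used.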

Additional observations from a re-analysis of the deposited data

Results flagged for a closer look

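Regions of the same kind were also listed outside the 28 chromosomes used in the report. On chromosome 23 shared H3K4me3 regions of all kinds were dense, with 1169 in 52.5 Mb, compared with 1068 in 65.8 Mb on chromosome 18. Of its 839 mid-width regions, 584 (69.6%) had no shared H3K27me3, against 74.4% on the 28 chromosomes. These 584 stood at 11.1 per Mb, which is above the members on every chromosome of the report. Their median score per window was 8.60 in replicate 1 and 7.56 in replicate 2, and 85.3% were weak in both libraries, against 31.3% of the members. On chromosome X there were 78, which were 14.3% of its 547 mid-width H3K4me3 regions, against 74.4% on the 28 chromosomes. Unplaced sequences held 67, which were 13.2% of their 509 mid-width regions. No control library was at hand for these values.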

How the results depend on the processing

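Of the values set out below, every one kept its direction where it had one, and the ranges show how far it moved; the causes of the moves were not tested beyond what each setting does by construction. No paired analysis was possible because counts, shares and medians of peak lists come from no fitted test. With 2 libraries per mark and unknown read depth, weak and narrow members are the least certain.

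With a single replicate the members were 12103 to 12612, their share of H3K4me3 regions 58.9% to 61.0%, the ratio of score per window to that of regions with H3K27me3 1.33 to 1.34, the median distance to H3K27me3 78400 to 85200 bp and to H3K4me3 13600 to 14600 bp, the density ratio between chromosomes 4.67 to 4.75, and the share in the last 10% of the chromosome 15.1% to 16.2%. With the peaks of either replicate, the share was 57.0%, the score ratio 1.29, the distances 73800 bp and 13600 bp, the density ratio 4.57 and the last 10% of the chromosome 15.5%. With an overlap of 50%, unshared H3K27me3 lay over 3.54% of members and the density ratio was 4.47.

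With peaks at or above the median score only, there were 5876 members, recurrence averaged over both directions was 95.8% in place of 89.7%, unshared H3K27me3 1.82%, the score ratio 1.18, the distances 177200 bp and 36400 bp, the density ratio 4.55, the last 10% of the chromosome 14.5%, and the score per window had 1 top in place of 2 in each replicate. Under the other alternatives it had 2 in each replicate that remained, a check added after the data were seen.

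Without any H3K27me3 peak of either replicate, the share was 57.2% and the density ratio 4.58. With no H3K27me3 within 2000 bp they were 56.6% and 4.19, the score ratio was 1.31 and the distance to H3K27me3 104400 bp. With widths of 1200 bp to under 4800 bp the share was 55.7%. On chromosomes 1 to 29 and X the share was 56.8%, recurrence 86.3%, unshared H3K27me3 3.59%, the score ratio 1.32, the distance to H3K4me3 17200 bp and the density ratio 19.8, the last because chromosomes 23 and X hold the highest and lowest densities.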

Other observations

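Mid-width H3K4me3 peaks without H3K27me3 that were listed in 1 replicate only numbered 1594 in replicate 1 and 962 in replicate 2. They were narrow, with median widths of 1200 bp and 1400 bp against 2600 bp for the peaks listed again, and 93.0% and 82.5% of them were under 2000 bp. Their median score per window was 7.50 and 6.83, against 25 and 21.6 for those listed again, and 95% of them lay under 9.86 and 9.17. The highest reached 14.8 and 13.2, so none came up to the score per window of 17 and 15 that divided weak from strong members. Within 5 kb of an H3K4me3 peak of the other replicate lay 34.3% and 34.4% of them.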
